A study of Homo sapiens with 18 samples.

Results

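The response to CCS1477 was compared between H460, a large cell lung carcinoma line that the series describes as NRF2-activated, and ABC-1, a lung adenocarcinoma line that it describes as wildtype. The quantity of interest was the difference in response: the log2 change of a gene with CCS1477 over DMSO in H460, minus the same change in ABC-1. A positive difference therefore means a change that was higher in H460, whether or not the gene rose there. There were 4 groups of 3 libraries, taken after 24 h: H460 with DMSO, H460 with CCS1477, ABC-1 with DMSO and ABC-1 with CCS1477, 12 of the 18 libraries of the series. Every group carries the genotype of its line, with no added transgene or deletion stated. Each line is 1 model of its tumour type and of its NRF2 state, so line, tumour type and NRF2 state cannot be told apart. For the dose, 5 µM stands with the samples and 5 mM in the design text. The members were all genes with a row in both lines' tables: 14529 of the 20374 genes found in any of the 3 tables, of which 13535 passed a filter of at least 1 CPM (reads per 1e6 reads of a library) in at least 3 of the 12 libraries and were tested. The 994 other shared genes were not tested, and 1895 genes were listed for H460 only and 2381 for ABC-1 only of this pair.

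CCS1477, also known as inobrodib, occupies the bromodomain of the paralogous coactivators p300 (EP300) and CBP (CREBBP), the pocket with which they hold on to acetylated histones at enhancers and promoters. Stress responses lean on such coactivators. NRF2 drives antioxidant genes, ATF4 answers amino acid shortage, XBP1 and its partners answer unfolded protein in the endoplasmic reticulum (ER), p53 answers DNA damage, and NF-kB and AP-1 answer cytokines and growth factors. In cells with activated NRF2 the antioxidant programme already runs at a high level before any treatment.

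Libraries of H460 held 26652298 to 33568180 reads and those of ABC-1 14483979 to 17483292, and reads alone left an error of 17.3% to 26.3% on a value of 1 CPM. Whether replicates were grown as separate cultures is not in the labels, so the p-values reflect library-to-library spread, possibly of technical origin. CCS1477 replicate 1 of H460 stood apart. Mitochondrially encoded RNAs took 0.795% of its reads against 1.58 to 2.40% in the other 11 libraries, and set against either replicate of its group its squared differences exceeded those of read sampling by a factor of 36.7 and 41.3, where the other 10 replicate pairs gave factors of 2.29 to 6.78. The main counts over all tested genes and some list counts below are therefore also given without it. CPM is a share of all reads, while log2 changes rest on the deposited scaling, so fold changes of CPM can differ slightly from them. Levels set side by side between lines come from tables that were normalized separately and carry no test.

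More genes changed in ABC-1 than in H460, and the responses differed at a large share of genes. In H460, 3936 genes rose (29.1% of those tested) and 3344 fell (24.7%). In ABC-1, 4440 rose (32.8%) and 4011 fell (29.6%). The difference itself passed an adjusted p of 0.05 at 6110 genes: the change was higher in H460 at 3257 (24.1%) and lower at 2853 (21.1%). Of these 6110 genes, 1107 had changed in H460 alone, 1846 in both lines in the same direction, 1046 in both lines in opposite directions, and 88 in neither, the others in ABC-1 alone. At 4024 of the 6110 the absolute change was larger in ABC-1. Over all tested genes the median absolute log2 change was 0.28 in H460 and 0.36 in ABC-1, and the median signed changes were 0.02 and 0.03. Both lines had most calls in common: of 5344 genes called in both, 4298 had the same direction. Without CCS1477 replicate 1 of H460 the difference was higher at 3198 genes and lower at 2942. Then 3592 genes rose and 3314 fell in H460, and 4546 rose and 4127 fell in ABC-1.

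**Figure D1:**
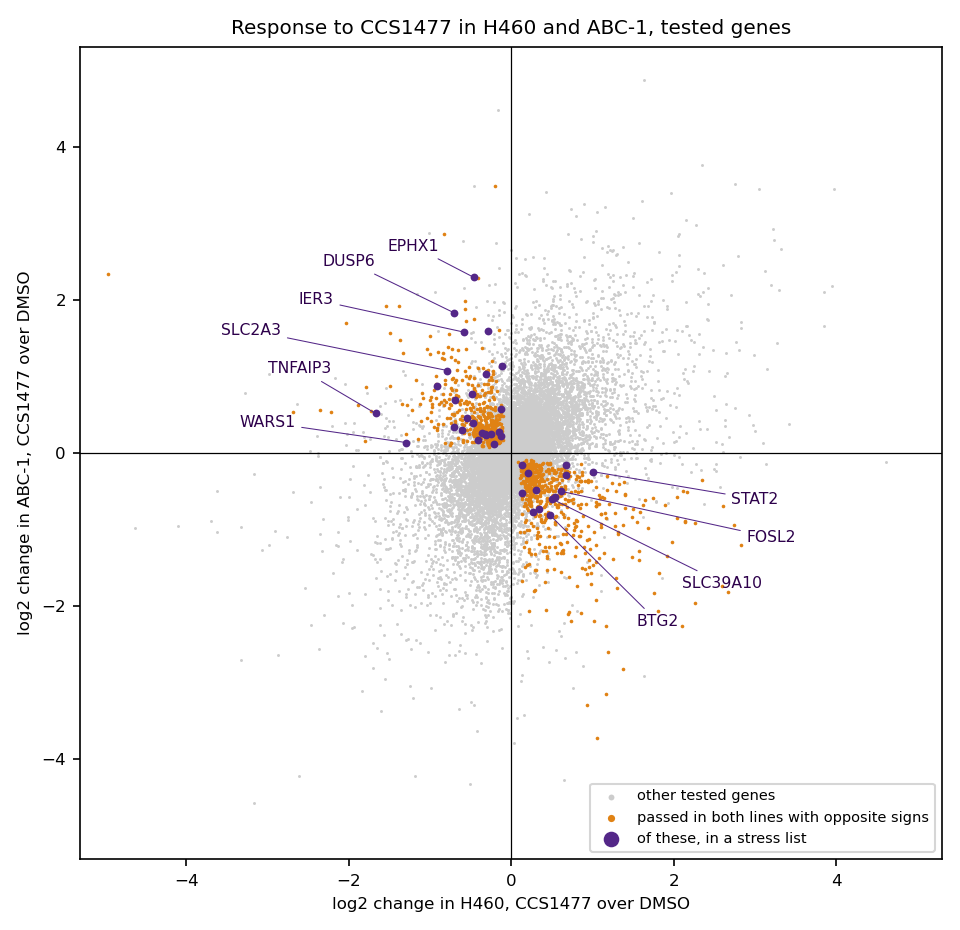
Each point is 1 of the 13535 tested genes, with its log2 change in H460 on the x axis and in ABC-1 on the y axis, both CCS1477 over DMSO. Grey points are other tested genes, orange points are the 1046 genes that passed in both lines with opposite signs, and purple points are the 38 of these that belong to a stress list. Most points lie along the diagonal where both changes share a sign, and the orange points fill the upper left and lower right corners around the centre.

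Genes moved in opposite directions at 1046 places. At 583 (4.31% of those tested) the gene rose in H460 and fell in ABC-1, and at 463 (3.42%) it fell in H460 and rose in ABC-1. Without CCS1477 replicate 1 of H460 these counts were 545 and 454. All 1046 also passed the test of the difference. Opposite calls from the same fit bring this with them, so it adds no support. The same opposite calls were made under each of 22 other settings or libraries left out, wherever the gene was tested, for 368 and 255 of them. Levels in DMSO went with these directions. Of the 583 genes that rose in H460, 506 had a lower mean CPM in DMSO in H460 than in ABC-1, and of the 463 that rose in ABC-1, 348 had a lower mean CPM in DMSO in ABC-1, while 7365 of all 13535 tested genes (54.4%) were lower in H460. The DMSO libraries enter both the level and the change, so the level is no independent measure.

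RHOU, a small GTPase that acts on cell shape (chromosome 1, 228735077 to 228746669 on GRCh38), had 2.25, 2.52 and 2.34 CPM in H460 with DMSO and 6.08, 5.38 and 5.87 with CCS1477. In ABC-1 it went from 194, 200 and 198 CPM to 44.3, 41.6 and 42.5. The treated and DMSO libraries did not overlap in either line, and the lines moved in opposite directions. The log2 change was 1.17 in H460 and -2.26 in ABC-1, a difference of 3.43 ± 0.10 (SE, limma-trend, adjusted p = 1.12e-10). AKAP12, a scaffold that anchors protein kinase A, moved the same way, from 7.20, 6.21 and 6.86 CPM to 26.2, 28.8 and 30.3 in H460 and from 57.0, 66.2 and 62.6 to 30.1, 29.6 and 26.6 in ABC-1. The lines began far apart and ended at about the same level, 28.5 ± 2.1 and 28.7 ± 1.9 CPM (SD). Its difference was 3.14 ± 0.12 (SE, adjusted p = 9.01e-10). CRIP2, a LIM domain protein, did likewise, rising by 1.57 in H460 and falling in ABC-1 (log2 change -1.40), with a difference of 2.97 ± 0.16 (SE, adjusted p = 1.21e-08). Of the genes with at least 5 CPM in the higher group of each line, the others with the strongest opposite changes of this direction were RTKN2, DNMT3B (a DNA methyltransferase that sets new methylation), RGL1, ADGRB2 and VSIR (an immune checkpoint ligand), with differences of 2.95, 2.44, 2.45, 2.34 and 3.21. CORO1A, an actin regulator, rose by 2.61 in H460 and had a log2 change of -0.70 in ABC-1.

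In the reverse direction PMEPA1, a target and brake of TGF-beta signalling (chromosome 20, 57648392 to 57711536), had 7.73, 8.43 and 8.81 CPM in H460 with DMSO and 3.43, 2.85 and 2.83 with CCS1477. In ABC-1 it had 7.45, 7.16 and 7.04 CPM with DMSO and 24.4, 21.5 and 22.3 with CCS1477. The lines shared a level in DMSO and parted under treatment, without overlap. The difference was -3.05 ± 0.14 (SE, adjusted p = 4.85e-09). GLRX, a glutaredoxin that reduces oxidised thiols with glutathione, went from 78.9, 81.2 and 85.7 CPM to 36.3, 30.7 and 35.5 in H460 and from 3.38, 3.19 and 3.87 to 8.52, 9.30 and 10.3 in ABC-1. Here the levels of the lines drew closer, and the difference was -2.65 ± 0.13 (SE, adjusted p = 6.44e-09). FZD4 (a Wnt receptor), COL1A1 (a collagen chain), WDR35 (a part of the machinery of primary cilia), MCC, DUSP4 (a MAP kinase phosphatase) and EPB41L3 were the other strongest by the same rule, with differences from -2.53 for COL1A1 to -1.79 for DUSP4.

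Among genes with at least 5 CPM in the higher group of each line, many of the largest differences came from a change in ABC-1. CPVL, a carboxypeptidase, had 24.1, 23.8 and 24.8 CPM in ABC-1 with DMSO and 2.00, 2.13 and 2.26 with CCS1477, a log2 change of -3.42, while its change of 0.16 in H460 did not pass (adjusted p = 0.117). DNAJC15, a mitochondrial co-chaperone, and TTC28 had the same shape, with changes of -3.62 and -2.90 in ABC-1 and -0.43 and 0.13 in H460, of which those in H460 did not pass. Their differences were 3.2 ± 0.29 and 3.03 ± 0.14 (SE). At the other end TUBA1A, an alpha-tubulin of neurons and dividing cells, went from 14.3, 13.5 and 12.4 to 162, 153 and 164 CPM in ABC-1 and from 376, 373 and 378 to 344, 345 and 342 in H460. Treatment raised it 11.9-fold in ABC-1 by mean CPM and left it 1.09-fold lower in H460, with no overlap in either line, a difference of -3.69 ± 0.07 (SE, adjusted p = 5.8e-12). TUBA1A is close in sequence to other alpha-tubulin genes and overlaps TUBA1C on the other strand, so reads could be split between them. CREB5 (a CRE-binding transcription factor), NR4A1 (an orphan nuclear receptor of the immediate-early class), IFFO2 and SLC16A6 (a transporter) followed, with differences of -3.69, -2.65, -2.89 and -2.91. CCDC88A, an actin-binding protein, had the lowest difference above that level, -4.64 ± 0.32 (SE), from a mean of 0.170 CPM in ABC-1 with DMSO to 9.15 CPM with CCS1477, against 53.8 and 50.5 in H460. Below that level, and chosen after their values were seen, SULT1A4, a sulfotransferase with a near-identical copy, had a difference of -7.29 and VILL, a villin-like protein, one of 4.92. HBA1, which encodes the same globin as HBA2, rose in both lines, by 1.63 in H460 and 4.87 in ABC-1. MALAT1 (difference 3.82 ± 1.31, SE, adjusted p = 0.0298) and SNHG5 (-2.97 ± 0.94, adjusted p = 0.0202) are non-coding RNAs whose replicates spread widely. MALAT1 had 0.286, 4.44 and 23.2 CPM in ABC-1 with CCS1477, and its difference missed the threshold without ABC-1 DMSO replicate 3 or without H460 DMSO or CCS1477 replicates 2 or 3 (adjusted p = 0.051 to 0.0678). That of SNHG5 missed it without ABC-1 DMSO replicate 1 or 2 (adjusted p = 0.0522 to 0.0544).

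Proliferation genes fell in ABC-1 and changed less in H460. All 36 tested genes of G2/M and mitosis had a higher change in H460, with a median difference of 1.48, and 35 of 37 genes of G1/S and DNA replication did, with a median of 0.95, against 24.1% of all tested genes and a median of 0.01 over those genes. None of either list had a lower change. In ABC-1 all 36 G2/M genes and 36 of 37 G1/S genes fell (against 29.6% of all tested genes), with medians of -1.62 and -1.26. In H460, 19 and 23 fell (52.8% and 62.2%, against 24.7%) and 6 and 3 rose (16.7% and 8.1%, against 29.1%), with medians of -0.14 and -0.26. The exception in G1/S was CCNE1 (cyclin E1), chosen here for its value, with a change of 0.58 in ABC-1.

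BUB1, a kinase of the spindle checkpoint, had 101, 100 and 104 CPM in H460 with DMSO and 141, 144 and 144 with CCS1477. In ABC-1 it had 80.6, 78.9 and 80.8 and then 24.3, 26.2 and 27.1. Close to each other in DMSO, the lines ended well apart, and no treated library overlapped its DMSO group. The difference was 2.10 ± 0.06 (SE, adjusted p = 1.12e-10). ANLN, the scaffold of the contractile ring in cytokinesis (chromosome 7, 36389806 to 36453791, overlapping KIAA0895 on the other strand), rose from 280, 278 and 283 to 354, 364 and 366 CPM in H460. In ABC-1 it fell from 935, 957 and 938 to 337, 358 and 329, so that the lines met at one level. Its difference was 1.82 ± 0.05 (SE, adjusted p = 1.12e-10). TPX2, which nucleates spindle microtubules, and CDK1, the mitotic kinase, had log2 changes of -1.80 and -1.62 in ABC-1 and of -0.15 and -0.13 in H460. The call of TPX2 in H460 was lost when libraries were scaled by their totals, and that of CDK1 under that scaling (adjusted p = 0.179), in 1 fit over all 18 libraries (adjusted p = 0.0622) and without H460 DMSO replicate 3 or CCS1477 replicate 2 (adjusted p = 0.0509 to 0.0545). Among replication genes, the helicase subunits MCM2 and MCM5 fell in both lines, by 0.41 and 0.61 in H460 and by 1.72 and 2.00 in ABC-1 on the log2 scale. TYMS, which makes thymidylate for DNA, had 141, 144 and 146 and then 150, 144 and 149 CPM in H460, where the groups overlapped, and went from 175, 178 and 169 to 60.5, 68.6 and 61.1 in ABC-1. FEN1, a flap nuclease, had a difference of 1.1.

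Replication-dependent histones, which are made in S phase, had a higher change in H460 at 29 of 31 tested genes (93.5%, against 24.1% of all tested genes). A lower one was found at 0 (against 21.1%), and the median difference was 1.5. In ABC-1 all 31 fell (against 29.6%), with a median of -1.60. In H460, 12 fell (38.7%, against 24.7%) and 2 rose (6.5%, against 29.1%), with a median of -0.15. H1-5, a linker histone, had 255, 225 and 232 and then 264, 238 and 241 CPM in H460, and 391, 348 and 343 and then 95.7, 102 and 92.5 in ABC-1. The H460 groups overlapped and the ABC-1 groups lay apart. Its difference was 1.94 ± 0.09 (SE, adjusted p = 3.4e-09). H1-3, H2BC7 and H3C2 had differences of 1.98, 1.78 and 1.78. Histone genes of one family are near-identical, so counts of single members are uncertain, and whether transcripts without a poly(A) tail were retained is not given in the sources used here. Without CCS1477 replicate 1 of H460 the 3 lists had 36, 34 and 29 genes with a higher change. In bulk RNA, fewer cycling cells and less of these RNAs per cell cannot be told apart.

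**Figure D2:**
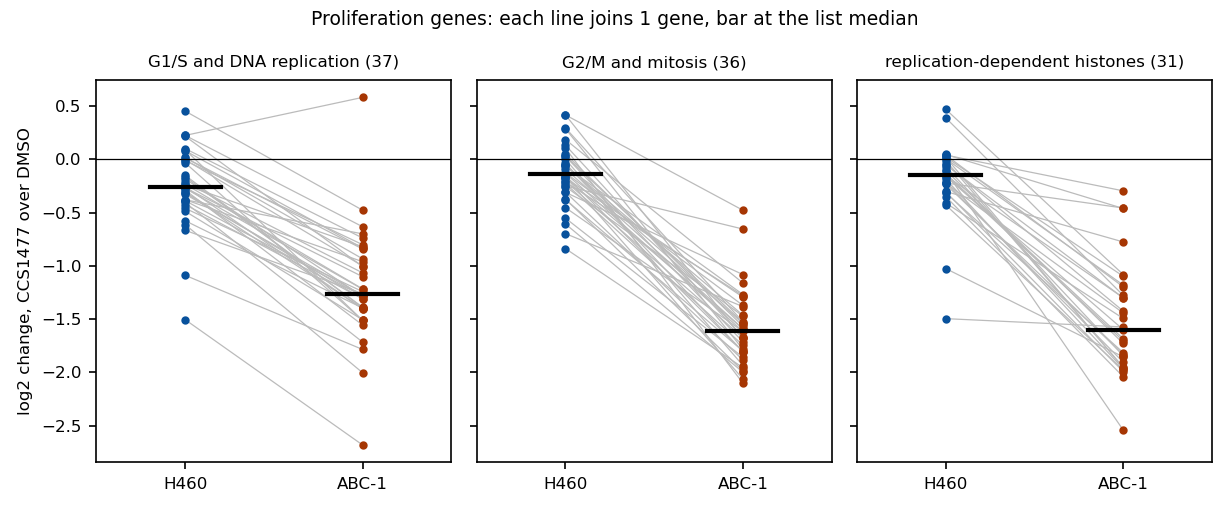
The y axis is the log2 change, CCS1477 over DMSO, and each grey line joins the values of 1 gene in H460 (blue) and ABC-1 (brown). Black bars mark the list medians, -0.26, -0.14 and -0.15 in H460 and -1.26, -1.62 and -1.60 in ABC-1, and nearly all lines slope down from H460 to ABC-1.

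The 250 bases before the RefSeq start of these genes (GRCh38.p14, 5′ to 3′ on the gene's strand) were searched on both strands for 8 short motifs. A start region was found for 487 of 618 genes named or listed and for 10078 of 13516 tested symbols. The cell cycle homology region, TTTGAA, was present in 16 of 29 G2/M genes (55.2%) against 8.35% of all tested genes with a start region. The letters CCAAT were present in 24 of 29 G2/M genes (82.8%) and in 25 of 29 histone genes (86.2%) against 35.9% of all. An E2F-type motif, TTNNCGC, was present in 22 of 32 G1/S genes (68.8%) against 34.4% of all. One region is shown for each list, from genes named above, with the motif in capitals: the cell cycle homology region in ANLN (both strands, side by side, chr7:36389612-36389861, plus strand), the E2F motif in TYMS (read on the other strand, chr18:657403-657652, plus strand) and CCAAT in H3C2 (chr6:26032100-26032349, minus strand). A match of letters is a description and does not show that a factor binds.
ANLN: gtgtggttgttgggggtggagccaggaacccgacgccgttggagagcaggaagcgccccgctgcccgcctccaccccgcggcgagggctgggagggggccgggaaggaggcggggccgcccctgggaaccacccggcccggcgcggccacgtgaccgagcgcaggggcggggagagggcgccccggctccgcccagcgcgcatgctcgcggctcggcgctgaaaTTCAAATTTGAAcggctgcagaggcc
TYMS: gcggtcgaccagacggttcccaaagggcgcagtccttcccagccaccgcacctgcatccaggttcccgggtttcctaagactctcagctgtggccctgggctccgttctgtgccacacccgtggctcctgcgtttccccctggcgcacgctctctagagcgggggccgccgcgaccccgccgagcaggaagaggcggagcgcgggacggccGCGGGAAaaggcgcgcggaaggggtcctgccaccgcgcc
H3C2: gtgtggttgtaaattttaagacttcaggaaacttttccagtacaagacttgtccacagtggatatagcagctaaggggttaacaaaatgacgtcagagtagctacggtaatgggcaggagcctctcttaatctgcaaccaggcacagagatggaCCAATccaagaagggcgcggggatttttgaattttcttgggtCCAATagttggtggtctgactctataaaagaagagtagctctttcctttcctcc

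Stress genes differed in both directions, list by list. The 14 stress lists held 348 tested genes, each counted once. The change was higher in H460 at 92 of the 348 and lower at 123, against 24.1% and 21.1% of all tested genes. Of the 348, 38 (10.9%) moved in opposite directions, against 7.73% of all tested genes. Of the 38, 13 rose in H460 and fell in ABC-1 and 25 did the reverse. Under each of the 22 other settings or libraries left out, wherever the gene was tested, 23 of the 38 were again opposite, 8 and 15 of them in the 2 directions. Without CCS1477 replicate 1 of H460 there were 34, all of them among the 38.

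**Figure D3:**
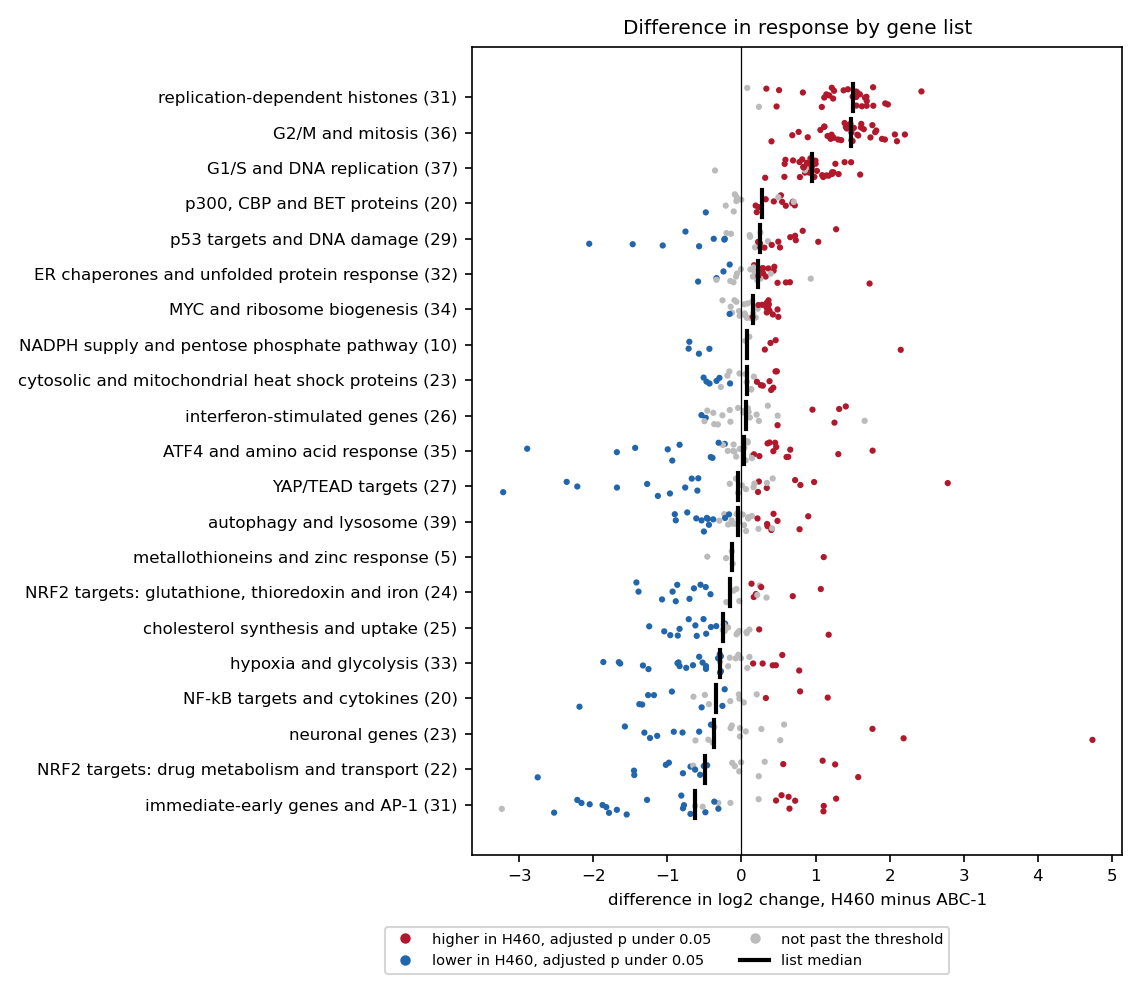
Each point is 1 tested gene of a list (number in brackets), placed on the x axis by its difference in log2 change, H460 minus ABC-1. Red points passed as higher in H460, blue points as lower and grey points did not pass, and black bars mark the medians, from -0.63 for immediate-early genes to 1.5 for histones.

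Several NRF2 targets of the thiol and iron systems rose more in ABC-1. In the list of glutathione, thioredoxin and iron genes the change was lower in H460 at 11 of 24 tested genes (21.1% of all tested genes) and higher at 6, with a median difference of -0.16. In ABC-1, 12 rose and 8 fell, with a median of 0.19. In H460, 10 rose and 7 fell, with a median of 0.06. FTL, the light chain of the iron store ferritin (chromosome 19, 48965301 to 48966878), had 6177, 6024 and 5991 CPM in H460 with DMSO and 6731, 6601 and 6171 with CCS1477, groups that overlapped in H460. In ABC-1 it went from 880, 829 and 852 to 2450, 2340 and 2475 CPM. FTL thus rose 2.84-fold by mean CPM in ABC-1, which still ended below every H460 library, and its log2 change of 0.03 in H460 did not pass. Its difference was -1.42 ± 0.07 (SE, adjusted p = 4.38e-09). FTH1, the heavy chain, followed the same course, with changes of -0.08 (not passed) and 1.31 and a difference of -1.39 ± 0.09 (SE, adjusted p = 5.82e-08). Ferritin genes have many processed copies in the genome, and FTH1 overlaps BEST1 on the other strand.

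TXNRD1, thioredoxin reductase, rose in both lines and more in ABC-1. It had 1329, 1352 and 1384 and then 2125, 1996 and 2014 CPM in H460, and 285, 277 and 270 and then 751, 737 and 782 in ABC-1. Treated and DMSO libraries lay apart in both lines. The changes of 0.52 and 1.39 gave a difference of -0.87 ± 0.06 (SE, adjusted p = 9.15e-08). SRXN1, sulfiredoxin, had changes of 0.16 and 1.23, the first of which missed the threshold without H460 DMSO replicate 1 (0.13, adjusted p = 0.0513). SLC40A1, ferroportin, the exporter of iron, went the other way, rising by 0.34 in H460 with a change of -0.73 in ABC-1, and its call in H460 was lost when each line was fitted alone. BLVRB, biliverdin reductase, had changes of -0.31 and 0.24, and the one in ABC-1 missed the threshold without ABC-1 DMSO replicate 3 or CCS1477 replicate 1 or 3 (adjusted p = 0.0545 to 0.128).

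Most tested genes of drug metabolism and transport under NRF2 fell in H460. Of 22 tested, 16 fell (72.7%, against 24.7% of all tested genes) and 0 rose (against 29.1%) there, with a median of -0.72. In ABC-1, 9 fell (40.9%, against 29.6%) and 4 rose (18.2%, against 32.8%), with a median of -0.16. Only 22 of 32 listed genes were tested: 8 had a row in one of the 2 tables and 2 in neither. The change was lower in H460 at 11 of the 22, against 21.1% of all, and higher at 4 (18.2%, against 24.1%). EPHX1, microsomal epoxide hydrolase (chromosome 1, 225810092 to 225845563, overlapping TMEM63A on the other strand), had 350, 354 and 354 CPM in H460 with DMSO and 281, 271 and 258 with CCS1477. In ABC-1 it had 7.90, 7.79 and 8.63 CPM and then 43.1, 40.2 and 44.0. It fell 1.31-fold in one line and rose 5.23-fold in the other by mean CPM, without overlap. The difference was -2.75 ± 0.07 (SE, adjusted p = 6.92e-11). ABCC1, an exporter of glutathione conjugates, had changes of -0.25 and 0.25 and a difference of -0.51 ± 0.10 (SE, adjusted p = 0.0014). AKR1C3, an aldo-keto reductase with close paralogs, fell in both lines, from 372, 370 and 393 to 123, 116 and 127 CPM in H460 and from 22.9, 22.4 and 23.5 to 3.60, 2.96 and 3.07 in ABC-1, so the fall was larger in ABC-1 (difference 1.1 ± 0.09, SE, adjusted p = 8.76e-07). KYNU, kynureninase, fell by 1.58 in H460 and had a change of -0.14 in ABC-1 that did not pass. NQO1, the quinone reductase used as a marker of NRF2, had 1373, 1423 and 1487 and then 1567, 1483 and 1587 CPM in H460, where the groups overlapped, and 59.1, 62.0 and 54.6 and then 100, 98.2 and 105 in ABC-1. Its changes of 0.04 (not passed) and 0.73 gave a difference of -0.69 ± 0.08 (SE, adjusted p = 1.4e-05).

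**Figure D4:**
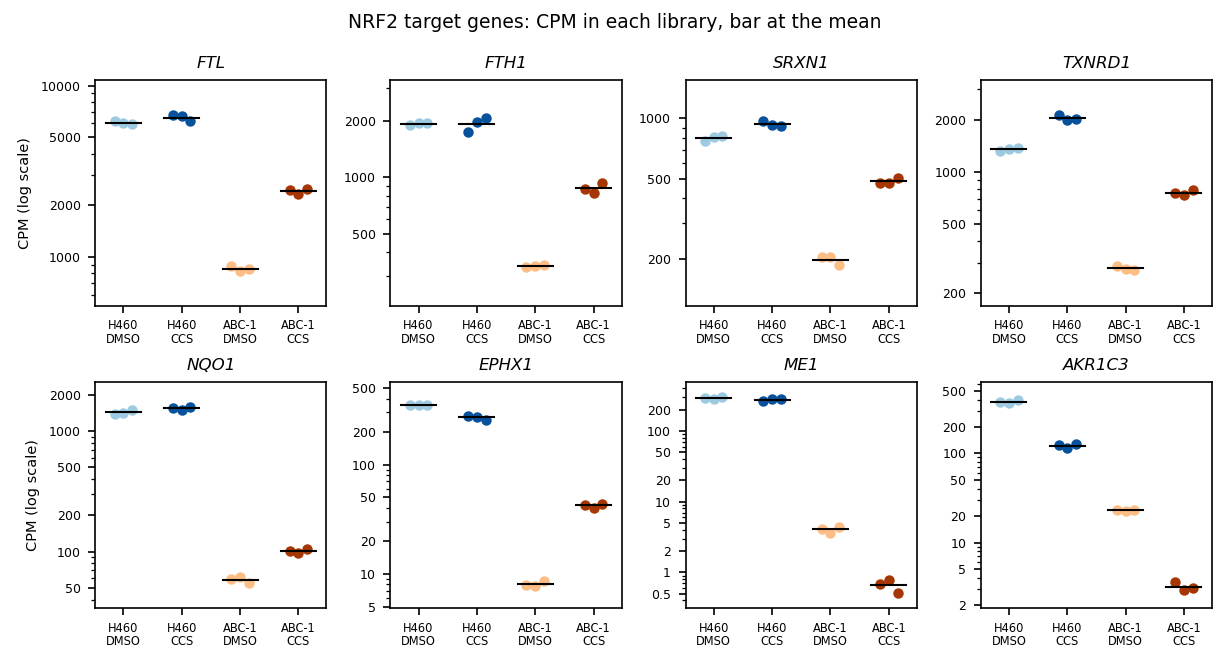
Each panel plots the CPM of 1 NRF2 target gene on a log axis in the 3 libraries of each group, with a bar at the mean. All 8 genes lie higher in H460 than in ABC-1 with DMSO, and from FTL to NQO1 the step up with CCS1477 is larger in ABC-1, EPHX1 falls in H460 and rises in ABC-1, and ME1 and AKR1C3 step down there.

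Levels in DMSO set the lines apart for these genes. Mean CPM was more than 5-fold higher in H460 at 14 of 22 drug metabolism genes and 10 of 24 glutathione, thioredoxin and iron genes, against 5.90% of all tested genes. NFE2L2, which encodes NRF2, differed less in RNA level. It had 126, 119 and 128 and then 117, 129 and 125 CPM in H460, where the groups overlapped, and 96.4, 106 and 93.1 and then 121, 125 and 123 in ABC-1. It rose in ABC-1 (0.26) and not in H460 (-0.08, adjusted p = 0.244), a difference of -0.34 ± 0.08 (SE, adjusted p = 0.00364). KEAP1, the adaptor that sends NRF2 to degradation, had changes of -0.20 and -0.45 and a difference of 0.25 ± 0.09 (SE, adjusted p = 0.0356). That call was lost without ABC-1 CCS1477 replicate 1, 2 or 3 or without DMSO replicate 1 or 2 of either line (adjusted p = 0.0501 to 0.0868), with the replicate number as a block (adjusted p = 0.052) and with limma-voom (adjusted p = 0.0518). In H460 the change of KEAP1 missed the threshold without DMSO replicate 3 or CCS1477 replicate 2 or 3 (adjusted p = 0.055 to 0.0832) and when libraries were scaled by their totals (adjusted p = 0.118).

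Of 10 tested genes that supply NADPH, the reductant that these enzymes use, the change was higher in H460 at 4 and lower at 4 (40.0% each, against 24.1% and 21.1% of all tested genes). ME1, malic enzyme, had 294, 283 and 305 and then 268, 281 and 284 CPM in H460, where the groups overlapped, and 4.14, 3.64 and 4.42 and then 0.686, 0.770 and 0.501 in ABC-1. It fell 6.23-fold in ABC-1 by mean CPM, and the difference was 2.15 ± 0.13 (SE, adjusted p = 5e-08). IDH1, cytosolic isocitrate dehydrogenase, moved in opposite directions, from 366, 375 and 388 to 313, 310 and 326 CPM in H460 and from 115, 114 and 117 to 141, 140 and 148 in ABC-1. PGD, an oxidative enzyme of the pentose phosphate pathway, had changes of -0.12 and 0.58, and the first did not pass when libraries were scaled by their totals (adjusted p = 0.186).

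Antioxidant response elements were searched as TGACNNNGC and found in 4 of 17 glutathione, thioredoxin and iron genes with a start region (23.5%) against 12.0% of all. The drug metabolism list had 2 of 16 (12.5%), and lists of other pathways reached similar shares, among them autophagy with 7 of 28 (25.0%) and interferon-stimulated genes with 5 of 22 (22.7%). TXNRD1 (chr12:104215529-104215778, plus strand, RefSeq on GRCh38.p14) is shown because its 2 responses differed in size and not in direction, with the element in capitals.
TXNRD1: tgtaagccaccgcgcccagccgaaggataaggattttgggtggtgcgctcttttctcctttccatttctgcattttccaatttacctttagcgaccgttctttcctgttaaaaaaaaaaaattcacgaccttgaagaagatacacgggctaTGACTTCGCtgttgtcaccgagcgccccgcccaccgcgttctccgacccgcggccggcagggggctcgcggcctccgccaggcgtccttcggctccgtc

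Most tested genes of the ATF4 and amino acid response fell in each line, and some rose. Of 35 tested genes 26 fell and 7 rose in H460 (median -0.39), and 22 fell and 8 rose in ABC-1 (median -0.40). The change was higher in H460 at 12 (34.3%, against 24.1% of all tested genes) and lower at 10 (28.6%, against 21.1%), with a median difference of 0.04. WARS1, the cytosolic tryptophan tRNA ligase (chromosome 14, 100333788 to 100376805, overlapping WDR25 on the other strand), fell from 372, 364 and 357 to 158, 156 and 154 CPM in H460. In ABC-1 it had 54.0, 56.4 and 52.8 and then 61.5, 60.2 and 65.5, a change of 0.14 that missed the threshold without ABC-1 DMSO replicate 1 or 3, or treated replicate 3 (adjusted p = 0.0551 to 0.0812). The difference of -1.44 ± 0.06 (SE, adjusted p = 3.18e-09) held in each of these. DDIT3, which encodes the stress factor CHOP (overlapping MARS and MBD6 on the other strand), had 9.61, 9.13 and 10.0 and then 7.27, 6.62 and 6.77 CPM in H460 and 9.49, 7.86 and 7.94 and then 11.6, 12.7 and 12.0 in ABC-1. From like levels in DMSO it fell in one line and rose in the other, a difference of -1.0 ± 0.13 (SE, adjusted p = 3.56e-05). SLC3A2, the heavy chain of amino acid and cystine transporters, did the reverse, with changes of 0.20 and -0.27.

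CTH, which makes cysteine by transsulfuration, had 10.4, 10.4 and 10.6 and then 12.2, 11.0 and 11.5 CPM in H460, a change of 0.07 that did not pass, and 63.7, 67.0 and 65.3 and then 20.6, 20.1 and 21.4 in ABC-1. It fell in ABC-1, with a difference of 1.77 ± 0.08 (SE, adjusted p = 5.9e-09). DDIT4, an inhibitor of mTORC1, fell in both, by 0.55 and by 1.86 on the log2 scale. ATF3, a stress-induced repressor, rose in both, from 1.58, 1.72 and 1.84 to 3.43, 2.82 and 2.86 CPM in H460 and from 2.42, 2.17 and 2.42 to 13.6, 13.5 and 14.6 in ABC-1. Its rise was larger in ABC-1, with a difference of -1.68 ± 0.17 (SE, adjusted p = 5.14e-06).

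More ER chaperones and genes of the unfolded protein response fell in ABC-1 than in H460. Of 32 tested, the change was higher in H460 at 14 (43.8%, against 24.1% of all tested genes) and lower at 4 (12.5%, against 21.1%), with a median difference of 0.22. In ABC-1, 18 fell (56.2%, against 29.6%) and 8 rose (25.0%, against 32.8%). The shares in H460 were near those of all tested genes, with 9 that fell (28.1%, against 24.7%) and 10 that rose (31.2%, against 29.1%). HERPUD1, which helps clear misfolded ER proteins (chromosome 16, 56932048 to 56944863), had 40.1, 39.7 and 43.3 and then 33.8, 35.8 and 36.5 CPM in H460, and 77.8, 77.4 and 78.3 and then 19.6, 17.1 and 23.4 in ABC-1. The 3.88-fold fall by mean CPM in ABC-1 stood against a change of -0.29 in H460, which missed the threshold without DMSO replicate 3 (adjusted p = 0.0648) or CCS1477 replicate 1 (adjusted p = 0.0523) of H460, and under scaling by totals (adjusted p = 0.0538). The difference was 1.73 ± 0.13 (SE, adjusted p = 2.18e-07). XBP1, the transcription factor activated by the ER sensor IRE1, fell in both lines, from 78.8, 76.4 and 78.9 to 40.5, 40.6 and 42.7 CPM in H460 and from 237, 237 and 230 to 86.9, 89.7 and 86.6 in ABC-1. Its difference was 0.49 ± 0.05 (SE, adjusted p = 7.27e-06).

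DERL1, part of the channel that exports misfolded proteins, moved in opposite directions, from 72.6, 72.1 and 77.2 to 57.9, 59.0 and 58.5 CPM in H460 and from 118, 118 and 114 to 141, 137 and 133 in ABC-1. SEC61A1, the core of the ER translocon, rose by 0.13 in H460 and had a change of -0.15 in ABC-1. CALR, the chaperone calreticulin, had changes of 0.14 and -0.52 and a difference of 0.65 ± 0.06 (SE, adjusted p = 3.46e-06). The change of CALR in H460 missed the threshold without DMSO replicate 1 or CCS1477 replicate 1 of H460 (adjusted p = 0.068 to 0.0776), with the replicate block (adjusted p = 0.0543) and with each line fitted alone (adjusted p = 0.0584).

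Start regions of this list carried an ER stress element, CCAAT and CCACG with 9 bases between, at 7 of 29 genes (24.1%) against 0.139% of all. The 7 included XBP1 (chr22:28800570-28800819, minus strand), shown with the element in capitals. Every ER stress element contains a CCAAT match, and CCAAT was present in 24 of these 29 genes. An amino acid response element, TGATGNAA, was present in 4 of 30 ATF4 genes (13.3%) against 1.21% of all, and also in HERPUD1 (chr16:56931892-56932141, plus strand), where the capitals mark it on the other strand. Both regions are from RefSeq on GRCh38.p14.
XBP1: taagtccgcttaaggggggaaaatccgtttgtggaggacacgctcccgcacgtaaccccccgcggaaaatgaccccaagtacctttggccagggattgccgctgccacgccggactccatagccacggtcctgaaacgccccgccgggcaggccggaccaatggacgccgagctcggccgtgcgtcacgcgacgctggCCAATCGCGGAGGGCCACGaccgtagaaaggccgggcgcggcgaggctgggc
HERPUD1: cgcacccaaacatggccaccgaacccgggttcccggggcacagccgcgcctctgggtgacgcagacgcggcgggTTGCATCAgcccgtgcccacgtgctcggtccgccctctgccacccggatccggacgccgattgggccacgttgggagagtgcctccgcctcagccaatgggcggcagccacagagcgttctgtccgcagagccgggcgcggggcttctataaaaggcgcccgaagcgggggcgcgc

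Of 23 tested heat shock genes the change was higher in H460 at 8 (34.8%, against 24.1% of all tested genes) and lower at 6 (26.1%, against 21.1%). HSP90AA1, the inducible cytosolic HSP90, had 4025, 4065 and 4034 and then 5764, 6258 and 6246 CPM in H460, a rise of 0.52, and 1431, 1440 and 1400 and then 1573, 1589 and 1568 in ABC-1, where the change of 0.09 did not pass. DNAJB1, a partner of HSP70, rose by 0.14 in H460 and by 0.61 in ABC-1, a difference of -0.47 ± 0.06 (SE, adjusted p = 1.92e-05). HSPD1 and HSPE1, the mitochondrial chaperonin and its lid, are neighbours that share a promoter region. Their changes were 0.03 (not passed) and -0.45 in H460 and -0.43 and -0.93 in ABC-1, with differences of 0.46 and 0.48. HSPA1A, which is near-identical to HSPA1B, had changes of -0.15 and 0.28, and HSPA8 of -0.21 and 0.12. For HSPA1A the change in H460 missed the threshold without any 1 of 4 H460 libraries (DMSO replicates 1 and 2 and CCS1477 replicates 2 and 3, adjusted p = 0.0733 to 0.149), with each line fitted alone (adjusted p = 0.074) and under scaling by totals (adjusted p = 0.229). For HSPA8 the change in ABC-1 missed it without any 1 of 8 libraries (all but ABC-1 DMSO replicate 2 and the 3 treated H460 libraries, adjusted p = 0.0515 to 0.127), with the replicate block (adjusted p = 0.0719), with relative log expression factors (adjusted p = 0.0789) and with a filter of 1 CPM in all 12 libraries (adjusted p = 0.0523).

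Targets of p53 and DNA damage genes gave a higher change in H460 at 13 of 29 (44.8%, against 24.1% of all tested genes) and a lower one at 8 (27.6%, against 21.1%), with a median difference of 0.25. In H460, 14 rose (48.3%, against 29.1%) and 5 fell (17.2%, against 24.7%), and in ABC-1, 10 rose (34.5%, against 32.8%) and 11 fell (37.9%, against 29.6%). BTG2, an antiproliferative p53 target that is also an immediate-early gene, went from 11.5, 11.1 and 11.9 to 17.1, 17.0 and 16.4 CPM in H460 and from 14.4, 13.9 and 14.6 to 8.35, 8.65 and 8.27 in ABC-1. Its lines crossed, so that the higher line with DMSO became the lower one with CCS1477, and the difference was 1.28 ± 0.09 (SE, adjusted p = 1.4e-07).

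CDKN1A, the p21 inhibitor of cyclin-dependent kinases, rose in both lines. It had 56.1, 55.5 and 58.1 and then 121, 99.4 and 102 CPM in H460, and 19.7, 17.9 and 22.0 and then 106, 103 and 102 in ABC-1. From unequal levels in DMSO the lines reached about the same level with CCS1477, 108 ± 12 and 104 ± 1.7 CPM (SD). The changes of 0.85 and 2.32 gave a difference of -1.47 ± 0.10 (SE, adjusted p = 1.55e-07). CCNG1, cyclin G1, rose by 0.67 in H460, and its change of -0.15 in ABC-1 missed the threshold without ABC-1 DMSO or CCS1477 replicate 1 or 2 (adjusted p = 0.062 to 0.152), with the replicate block (adjusted p = 0.0522), with limma-voom (adjusted p = 0.0723) and when libraries were scaled by their totals (adjusted p = 0.131).

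**Figure D5:**
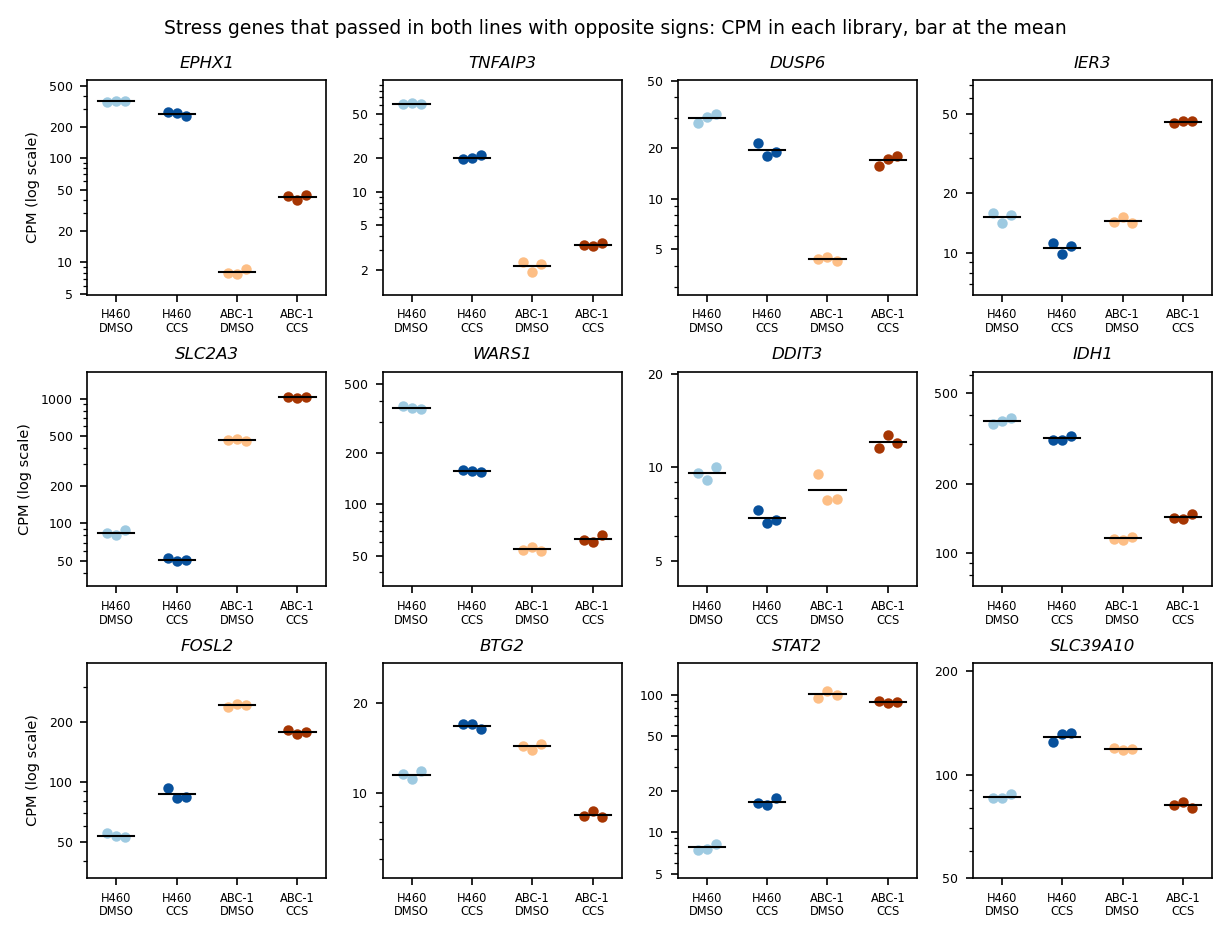
Each panel plots the CPM of 1 stress gene on a log axis in the 3 libraries of each group, with a bar at the mean. In the first 8 panels the H460 libraries fall with CCS1477 and the ABC-1 libraries rise, and in FOSL2, BTG2, STAT2 and SLC39A10 they do the reverse.

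Immediate-early and AP-1 genes had the lowest median difference of the stress lists, -0.63. The change was lower in H460 at 17 of 31 (54.8%, against 21.1% of all tested genes) and higher at 8 (25.8%, against 24.1%). In both lines more rose than fell. In H460, 17 rose (54.8%, against 29.1%) and 6 fell (19.4%, against 24.7%), with a median of 0.41. In ABC-1, 22 rose (71.0%, against 32.8%) and 6 fell (19.4%, against 29.6%), with a median of 1.13. DUSP6, a phosphatase that switches off ERK (chromosome 12, 89347232 to 89353271), had 28.2, 30.4 and 31.7 CPM in H460 with DMSO and 21.4, 18.0 and 19.0 with CCS1477. In ABC-1 it went from 4.4, 4.47 and 4.28 to 15.7, 17.2 and 17.9. It fell in H460 and rose 3.86-fold in ABC-1 by mean CPM, and the treated levels of the lines nearly met. The difference was -2.53 ± 0.12 (SE, adjusted p = 4.39e-09). IER3, an early response gene (chromosome 6, 30743199 to 30744554, with IER3-AS1 on the other strand), had 15.9, 14.2 and 15.5 and then 11.2, 9.90 and 10.8 CPM in H460, and 14.3, 15.1 and 14.2 and then 45.1, 45.8 and 46.1 in ABC-1. Equal in DMSO, the lines parted, with a difference of -2.16 ± 0.10 (SE, adjusted p = 4.14e-09).

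FOSL2, an AP-1 subunit, moved the other way, from 55.2, 53.6 and 52.9 to 93.1, 83.5 and 83.7 CPM in H460 and from 237, 247 and 243 to 182, 175 and 179 in ABC-1. CCN1, a matricellular protein induced by growth factors, had 18.5, 16.4 and 17.5 and then 22.6, 18.7 and 19.4 CPM in H460 (0.14, not passed) and 67.2, 70.3 and 70.4 and then 359, 372 and 378 in ABC-1, a difference of -2.22 ± 0.09 (SE, adjusted p = 2.23e-09). ZFP36, which speeds the decay of AU-rich messages, had changes of -0.28 and 1.59, and DUSP2 of 0.54 and -0.57. In H460 the change of ZFP36 missed the threshold without DMSO replicate 2 or CCS1477 replicate 2 or 3 (adjusted p = 0.0595 to 0.0814), with each line fitted alone (adjusted p = 0.0601) and under scaling by totals (adjusted p = 0.0688), and that of DUSP2 without CCS1477 replicate 1 (0.39, adjusted p = 0.0512). In ABC-1 the change of DUSP2 did not pass with limma-voom (adjusted p = 0.177).

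NF-kB targets and cytokines had a lower change in H460 at 9 of 20 tested genes (45.0%, against 21.1% of all) and a higher one at 3 (15.0%, against 24.1%), with a median difference of -0.35. TNFAIP3, the A20 enzyme that restrains NF-kB (chromosome 6, 137867188 to 137883312), fell from 60.4, 62.4 and 61.5 to 19.6, 19.9 and 21.3 CPM in H460. In ABC-1 it rose from 2.36, 1.92 and 2.28 to 3.32, 3.26 and 3.51. The fall was 3.04-fold and the rise 1.54-fold by mean CPM, without overlap in either line, and the difference was -2.19 ± 0.12 (SE, adjusted p = 1.44e-08). NFKB2, the p100 subunit, had changes of -0.31 and 1.03. CXCL8, the chemokine interleukin-8, had changes of -0.69 and 0.69, but its ABC-1 libraries held at most 1.24 CPM, and with limma-voom its change in ABC-1 (adjusted p = 0.232) and its difference (adjusted p = 0.0596) did not pass, nor did its change in ABC-1 with each line fitted alone (adjusted p = 0.0648). BCL3 fell in both lines, by 0.62 and 1.41. Only 20 of 33 listed genes were tested: 9, among them IL6, CXCL1 and CXCL2, had a row in one of the 2 tables and 4 in neither.

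Interferon-stimulated genes had a higher change in H460 at 5 of 26 (19.2%, against 24.1% of all tested genes) and a lower one at 2 (7.7%, against 21.1%). STAT2, a transcription factor of interferon signalling, had 7.43, 7.59 and 8.24 and then 16.2, 15.8 and 17.7 CPM in H460, and 94.7, 107 and 101 and then 90, 87.0 and 88.1 in ABC-1. It rose by 1.01 in H460 and had a change of -0.24 in ABC-1, without overlap, a difference of 1.26 ± 0.09 (SE, adjusted p = 2.75e-07). HERC6, a ubiquitin ligase of the same list, had changes of 0.67 and -0.29. IFIT2, which binds viral RNA, fell in both, by 0.72 and 2.13, and DTX3L fell by 0.88 and 0.34.

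Hypoxia and glycolysis genes had a lower change in H460 at 19 of 33 (57.6%, against 21.1% of all tested genes) and a higher one at 6 (18.2%, against 24.1%), with a median difference of -0.29. In ABC-1, 18 rose (54.5%, against 32.8%) and 9 fell (27.3%, against 29.6%), and in H460, 11 rose (33.3%, against 29.1%) and 14 fell (42.4%, against 24.7%). SLC2A3, the glucose transporter GLUT3 (chromosome 12, 7919230 to 7936275), had 83.4, 80.1 and 88.1 and then 52.3, 49.7 and 51.1 CPM in H460. In ABC-1 it had 468, 478 and 457 and then 1036, 1017 and 1035. The line with the higher level rose further and the other fell, a difference of -1.86 ± 0.06 (SE, adjusted p = 2.57e-10). HK2 (hexokinase, the first step of glycolysis) and BHLHE40 (a hypoxia-induced repressor) had the same directions, with differences of -0.86 and -1.26. BNIP3, a mitophagy receptor, rose in ABC-1 from 10.1, 9.84 and 12.2 to 38.5, 38.3 and 42.3 CPM, against 131, 121 and 132 and then 152, 147 and 156 in H460, where its change of 0.18 missed the threshold without any 1 of 8 libraries (each of the 6 of H460 and ABC-1 CCS1477 replicates 1 and 2, adjusted p = 0.0531 to 0.167), with relative log expression factors (adjusted p = 0.09) and with no filter (adjusted p = 0.051). GAPDH, often taken as a reference gene, had a log2 change of 0.05 in H460 that did not pass and rose by 0.91 in ABC-1, from 2106, 2075 and 1984 to 4007, 3951 and 4073 CPM. NDRG1 had changes of 0.30 and -0.48, and the first missed the threshold without any 1 of 9 libraries (all but H460 CCS1477 replicate 2 and DMSO replicates 1 and 3, adjusted p = 0.0526 to 0.189) and with each line fitted alone (adjusted p = 0.104).

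Cholesterol genes had a lower change in H460 at 13 of 25 (52.0%, against 21.1% of all tested genes) and a higher one at 2 (8.0%, against 24.1%), with a median difference of -0.25. In ABC-1, 15 rose and 6 fell, and in H460, 7 rose and 12 fell. MSMO1, a sterol demethylase, had 81.5, 79.9 and 80.8 and then 52.9, 51.8 and 51.5 CPM in H460, and 159, 166 and 158 and then 211, 206 and 218 in ABC-1, a difference of -1.04 ± 0.06 (SE, adjusted p = 1.28e-08). SQLE, squalene epoxidase, had the same directions, with changes of -0.36 and 0.26. INSIG1, which holds the sterol sensor in the ER, and IDI1, an isomerase of the isoprenoid steps, rose in both lines, by 0.55 and 0.68 in H460 and by 1.41 and 1.52 in ABC-1. STARD4, a carrier of sterols within the cell, had changes of -0.11 in H460 and 1.14 in ABC-1. In H460 it missed the threshold without any 1 of 7 libraries (ABC-1 CCS1477 replicates 1 and 2 and DMSO replicate 3, H460 CCS1477 replicates 1 and 2 and DMSO replicates 2 and 3, adjusted p = 0.0529 to 0.143), with each line fitted alone (adjusted p = 0.0666), in 1 fit over all 18 libraries (adjusted p = 0.215) and under scaling by totals (adjusted p = 0.422).

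Of 39 tested autophagy and lysosome genes the change was lower in H460 at 12 (30.8%, against 21.1% of all tested genes) and higher at 8 (20.5%, against 24.1%). In H460, 19 rose (48.7%, against 29.1%) and 6 fell (15.4%, against 24.7%), and in ABC-1, 21 rose (53.8%, against 32.8%) and 4 fell (10.3%, against 29.6%). SQSTM1, the p62 cargo receptor that also binds KEAP1, rose from 1590, 1622 and 1656 to 2386, 2150 and 2055 CPM in H460 and from 213, 214 and 211 to 516, 530 and 533 in ABC-1. Both lines rose without overlap, and ABC-1 rose more, with a difference of -0.89 ± 0.07 (SE, adjusted p = 3.18e-07). MAP1LC3B, the LC3 protein of autophagosomes, rose by 0.65 and 1.38. TFE3, a transcription factor of lysosomal genes, had changes of -0.60 and 0.30, and the one in ABC-1 missed the threshold without ABC-1 DMSO replicate 1 or CCS1477 replicate 1 or 2 (adjusted p = 0.0511 to 0.0895). Of the zinc genes, SLC39A10, a zinc importer, went from 85.6, 85.5 and 87.7 to 124, 131 and 132 CPM in H460 and from 120, 118 and 119 to 81.4, 83.1 and 79.9 in ABC-1. The lines exchanged places, a difference of 1.11 ± 0.05 (SE, adjusted p = 3.5e-09), and it was the 1 gene of the 5 tested in that list with a difference.

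Among targets of YAP and TEAD, the growth control factors of the Hippo pathway, the change was higher in H460 at 7 of 27 (25.9%, against 24.1% of all tested genes) and lower at 11 (40.7%, against 21.1%), and 7 were opposite (25.9%, against 7.73%). IGFBP3, a carrier of insulin-like growth factors, had 3.60, 3.87 and 4.32 and then 6.97, 6.98 and 6.49 CPM in H460, and 915, 909 and 880 and then 217, 229 and 220 in ABC-1. Its difference was 2.78 ± 0.08 (SE, adjusted p = 1.61e-10). CCN2, a matrix protein, rose in both, 1.97-fold in H460 and 10.0-fold in ABC-1 by mean CPM, from 37.5, 37.2 and 38.5 to 82.0, 69.4 and 71.3 and from 49.0, 48.5 and 47.5 to 485, 479 and 487. The lines had similar levels in DMSO, and the difference was -2.36 ± 0.08 (SE, adjusted p = 2.57e-10). WWTR1, which encodes the YAP paralog TAZ, had changes of -0.74 and 0.39.

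Genes of p300, CBP, their partners and BET proteins had a higher change in H460 at 11 of 20 (55.0%, against 24.1% of all tested genes) and a lower one at 1 (5.0%, against 21.1%), with a median difference of 0.28. EP300 had 82.4, 80.1 and 80.7 and then 105, 109 and 98.3 CPM in H460, and 223, 221 and 228 and then 225, 229 and 228 in ABC-1, where the groups overlapped. It rose in H460 (0.29) and its change of -0.04 in ABC-1 did not pass, a difference of 0.33 ± 0.05 (SE, adjusted p = 0.000203). CREBBP had a difference of 0.19 ± 0.07 (SE, adjusted p = 0.0459) that was lost without any 1 of 8 libraries (all but H460 DMSO replicates 1 and 2, H460 CCS1477 replicate 3 and ABC-1 CCS1477 replicate 1, adjusted p = 0.0606 to 0.115). HEXIM1, an inhibitor of the elongation factor P-TEFb, rose from 107, 111 and 111 to 202, 169 and 168 CPM in H460 and had 160, 157 and 158 and then 157, 148 and 160 in ABC-1, with a difference of 0.72 ± 0.09 (SE, adjusted p = 1.76e-05). NCOA3, a steroid receptor coactivator, had changes of 0.37 and -0.32. Most tested genes of MYC and ribosome biogenesis fell in each line, 20 of 34 in H460 (58.8%, against 24.7% of all tested genes) and 27 in ABC-1 (79.4%, against 29.6%). Their change was higher in H460 at 15 (44.1%, against 24.1%) and lower at 1 (2.9%, against 21.1%), with a median difference of 0.15. NOLC1 and NPM1, nucleolar proteins, had differences of 0.28 and 0.34. MYC itself had changes of -0.29 and -0.16 and a difference of -0.13 ± 0.08 (SE) that did not pass (adjusted p = 0.211), and its change in ABC-1 missed the threshold without ABC-1 DMSO replicate 2 or 3, or treated replicate 1 (adjusted p = 0.0572 to 0.103), with limma-voom (adjusted p = 0.0791) and under scaling by totals (adjusted p = 0.123).

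Most tested neuronal genes rose in each line, 16 of 23 in H460 (69.6%, against 29.1% of all tested genes) and 18 in ABC-1 (78.3%, against 32.8%), and 0 were opposite. Because the list was chosen with earlier results of these data known, these shares describe its members and test nothing. The change was lower in H460 at 8 (34.8%, against 21.1%) and higher at 3 (13.0%, against 24.1%). TUBB3, a tubulin of neurons, went from 177, 186 and 174 to 627, 497 and 479 CPM in H460 and from 21.7, 21.3 and 21.7 to 193, 187 and 190 in ABC-1, a difference of -1.57 ± 0.11 (SE, adjusted p = 1.16e-07). KIF1A, an axonal motor, had the reverse, rising by 3.84 in H460 and 1.66 in ABC-1. Of 15 mitochondrially encoded RNAs 0 passed the difference, with a median of -1.0. Their level moved with CCS1477 replicate 1 of H460, in which MT-ND3 had 56.6 CPM against 464 and 427 in the other treated libraries.

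Markers of epithelium were listed in both lines. ABC-1 listed all 11 markers of simple epithelium, at a sum of 6684 to 7134 CPM with DMSO and 8793 to 8850 with CCS1477. H460 listed 9, without CDH1 and ELF3, at a sum of 2507 to 2555 and 2827 to 3678 CPM. H460 listed 10 of 13 mesenchymal markers, at 2902 to 3136 CPM with DMSO and 2833 to 3014 with CCS1477. ABC-1 listed 5 of 13, at 703 to 720 and 463 to 475. Such sums follow the most abundant markers. Of 5 mesenchymal markers tested, 4 rose in ABC-1 (against 32.8% of all tested genes) and 1 fell (against 29.6%), FN1 (-0.74). The calls of CDH2 and VIM in ABC-1 were each lost under some settings. In H460, 0 of the 5 rose and 2 fell. Of 9 epithelial markers tested, 3 rose and 3 fell in H460, and 2 rose and 2 fell in ABC-1. Of 10 squamous markers H460 listed 7, at 110 to 115 CPM with DMSO and 58.5 to 64.1 with CCS1477. ABC-1 listed 5 of the 10, among them TP63 and SOX2, which H460 did not list, at 171 to 178 and 162 to 169. Of 8 neuroendocrine markers H460 listed 3, at 27.3 to 29.4 and 29.3 to 30.7 CPM. ABC-1 listed 1, at 0.639 to 0.829 and 4.15 to 5.66. The adenocarcinoma lineage markers NAPSA and SFTPB were listed in neither line, and NKX2-1 had at most 1.66 CPM. Of 10 leukocyte markers H460 listed 3 and ABC-1 2, and PTPRC, CD3D and CD3E were listed in neither. Of 6 endothelial markers H460 listed 0 and ABC-1 1. FOXA1, a pioneer factor of airway epithelium, went from 67.8, 67.9 and 68.7 to 53, 55.1 and 55.2 CPM in H460 and from 28.1, 26.6 and 28 to 35.4, 34.3 and 36.5 in ABC-1, a difference of -0.69 ± 0.06 (SE, adjusted p = 7.71e-07).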

How the data were processed

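RNA was sequenced from H460 and ABC-1 cells after DMSO or CCS1477, 3 libraries a group. The authors deposited 1 table of log2 values for each line, with gene and transcript rows. Per the submitters' processing notes the build was GRCh38; for aligner, counter and strand the sources used here state nothing. The deposited log2 values equalled log2(reads times a step of each library + 4), and reads recovered from them were whole within 0.1 for 100% of values up to 1000 reads. CPM divides these reads by the library total, of which transcript rows held 9.54 to 10.7%.

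Gene rows were matched by gene ID without version. A limma-trend model (limma 3.58.1, R 4.3.3) with 4 group means was fitted to the deposited log2 values of 13535 genes that reached 1 CPM in 3 or more of the 12 libraries. Its contrasts were both responses and their difference, with Benjamini-Hochberg adjustment over these genes and a threshold of 0.05. A response called in both lines with opposite signs counted as opposite. In simulated data of 13535 genes, the difference was recovered for 98% of 100 genes with a log2 difference of 1. With a log2 difference of 0.5 it was recovered for 54% of 100 genes, and 12 of 13335 unchanged genes were called. These rates describe the simulated data only. Whether they hold for the deposited libraries, whose spread between replicates was uneven, was not tested.

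Named genes were NFE2L2, KEAP1, EP300, CREBBP and MYC, the 10 highest and 10 lowest differences and the 8 strongest opposite genes of each direction with at least 5 CPM in the higher group of each line, all opposite stress genes up to 8 a list, and up to 4 of each list by smallest p. The 10 highest and 10 lowest were taken only where treated and DMSO libraries did not overlap in at least 1 line. The members and lists were chosen with earlier results of these data known. Alternatives were other scalings, limma-voom on the recovered reads, a common scale, other filters, other sets of libraries, a replicate block and each library left out; matching only equal versions of gene IDs was chosen after seeing the data. Gene positions are from GENCODE, and start regions from RefSeq. A few members of the lists enter the counts and are not reported here.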

Additional observations from a re-analysis of the deposited data

Results flagged for a closer look

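The lines answered CCS1477 differently, by the test of the difference itself, at 3257 genes with a higher and 2853 genes with a lower change in H460. Among the genes named by rule and reported here, these had opposite calls in the 2 lines, given with the difference in log2 change, H460 minus ABC-1. That difference passed the threshold in the limma fit at each of them, which opposite calls from the same fit bring with them. Some of the opposite calls were lost under the 22 other settings or libraries left out. HSPA8 was again opposite in 11 of 22, and NDRG1 and STARD4 in 12 of 22 each. CCNG1 was opposite in 14 of the 21 that tested it, and HSPA1A in 16 of 22. The genes that rose in H460 and fell in ABC-1 were RHOU (3.43), CORO1A (3.31), VSIR (3.21), AKAP12 (3.14), CRIP2 (2.97), RTKN2 (2.95), DNMT3B (2.44), RGL1 (2.45) and ADGRB2 (2.34). To these belonged SLC3A2 (0.47), CALR (0.65), SEC61A1 (0.28), SLC40A1 (1.07), BTG2 (1.28), CCNG1 (0.83), NDRG1 (0.78) and SLC39A10 (1.11). The rest were FOSL2 (1.11), DUSP2 (1.11), STAT2 (1.26), HERC6 (0.96), BUB1 (2.10), ANLN (1.82), IGFBP3 (2.78) and NCOA3 (0.69).

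The genes that fell in H460 and rose in ABC-1 were TUBA1A (-3.69), CREB5 (-3.69), PMEPA1 (-3.05), SLC16A6 (-2.91), EPHX1 (-2.75), GLRX (-2.65), FZD4 (-2.39), COL1A1 (-2.53) and WDR35 (-2.29). With them stood MCC (-2.21), DUSP4 (-1.79), EPB41L3 (-2.36), WARS1 (-1.44), DDIT3 (-1.0), DERL1 (-0.59), HSPA1A (-0.43), HSPA8 (-0.34) and BLVRB (-0.55). Further genes were ABCC1 (-0.51), PGD (-0.70), IDH1 (-0.57), SLC2A3 (-1.86), BHLHE40 (-1.26), HK2 (-0.86), IER3 (-2.16), DUSP6 (-2.53) and ZFP36 (-1.88). Then followed TNFAIP3 (-2.19), NFKB2 (-1.34), CXCL8 (-1.38), TFE3 (-0.90), STARD4 (-1.25), MSMO1 (-1.04), SQLE (-0.62) and WWTR1 (-1.13). The last was FOXA1 (-0.70).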

How the results depend on the processing

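Asking in addition for an absolute log2 value of at least 1 left 892 higher and 575 lower differences, 622 genes that rose and 338 that fell in H460, 851 and 926 in ABC-1, and 31 and 9 opposite genes. With each of the 12 libraries left out in turn, the difference was higher at 2992 to 3219 genes and lower at 2580 to 2959. The same range was 3586 to 3943 for genes that rose and 2947 to 3347 for genes that fell in H460, 4056 to 4546 and 3669 to 4127 in ABC-1, and 523 to 574 and 375 to 482 for the 2 opposite directions. Scaling by library totals raised the share of rising genes among the calls in H460 from 54.1% to 64.3%. Of single gene differences, 22 lost and 10 gained the threshold over all left-out libraries, 3 lost and 6 gained it over the other alternatives, and none reversed. Single gene responses within a line, on which the opposite calls rest, also changed sides: 99 lost and 16 gained the threshold over left-out libraries, and 44 and 27 over the other alternatives. Same-numbered DMSO and CCS1477 libraries had correlations of their deviations of -0.083 to 0.072 over 6 pairs, so the numbers do not show a pairing. With the replicate block the difference was higher at 3130 and lower at 2688 genes, and 550 and 419 genes were opposite; 2 of 6 DMSO libraries correlated best with their own number. Reads per library were fewer in ABC-1, and the constant of 4 before the log was worth 0.130 to 0.137 CPM in H460 and 0.248 to 0.266 in ABC-1, which limits log2 changes near those levels.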
